A study of Aix galericulata with 8 samples.

Results

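ENG, ACVRL1, TEK and SHE are 3 receptors and 1 adaptor protein known from the endothelial cells that line blood vessels. They were followed here in the growing sail feather of the male Mandarin duck. The gene models were chosen by their symbol in 2 deposited tables of the vane epithelium and the feather pulp, and 4 gene models matched among the 859 in either table. All 4 stood in the epithelium table, which holds 784 gene models, and 0 of the 80 gene models in the pulp table carried one of the symbols. A gene model stands in a table where its unadjusted P was under 0.05 in the authors' own comparison of the medial brown with the lateral blue vane. The members were therefore selected on that measured P, and their place in the table is a description of the choice and not a result. The fold changes and FDR of that comparison were not used here, and P was read only to check this threshold. No direction between the vanes is therefore given for any gene.

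RNA had been sequenced from 8 libraries of wild-type males, with 2 libraries from each vane, medial brown and lateral blue, in the epithelium and likewise in the pulp. The feathers were collected in the breeding season about 4 weeks after plucking, and no treatment was given. The labels give each group 2 numbered replicates of the sail feather, which the paper calls biological replicates. Whether both vanes of a replicate came from the same feather is not stated. The paper's methods name 2 males and also the neighbouring flight feather, and the bird and wing behind each library are not given in the sources used here. The epithelium is the epidermal wall of the growing feather, from which the barbs form, and the pulp is its mesenchymal core, which carries the blood vessels. Both were separated by dissection, so the epithelium libraries are tissue and not purified keratinocytes.

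Endoglin, the product of ENG, and ALK1, the product of ACVRL1, act together at the endothelial surface. ALK1 is a type I receptor kinase of the TGF-beta family that binds BMP9 and BMP10 with a type II receptor and passes the signal to SMAD proteins in the cytoplasm, and endoglin is the co-receptor that helps the ligand bind. In humans, loss of a copy of either gene causes hereditary haemorrhagic telangiectasia, a disease of malformed vessels. TEK, also known as TIE2, is the receptor kinase of the angiopoietins and is known for keeping vessels stable. SHE is an adaptor protein with an SH2 domain, the fold that binds phosphorylated tyrosines.

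The value left for each gene was an average level in CPM, a gene's read count scaled to the size of its library. It covers the medial brown and lateral blue libraries of a tissue and was computed back from the authors' average on the log2 scale. The labels give 4 libraries per tissue, 2 from each vane, and each average is taken to rest on these. The tables name no library and hold 0 columns for single libraries. The spread between replicates and the depth of each library are thus unknown, and no error or test can be attached to an average. The level in either vane alone was not computed, since the fold changes were not used. An average over both vanes need not lie near the level in either. CPM is not scaled for the length of a transcript, and no lengths were at hand. The averages of different genes therefore give scaled read counts, and do not say which gene had more transcripts. The number of reads behind each gene is not known.

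ACVRL1, the ALK1 receptor, had an average of 64.3 CPM in the vane epithelium (gene model Mandarin_01514300), which is 6.01 on the log2 scale. ENG, its co-receptor, had an average of 50.0 CPM (Mandarin_00618500), or 5.64 on the log2 scale. Both receptors of the BMP9 and BMP10 pathway were thus read above the median of the table, which was 28.7 CPM over all 784 gene models. TEK, the angiopoietin receptor, had an average of 9.48 CPM (Mandarin_00120700), or 3.24 on the log2 scale, below the lower quartile of the table at 11.3 CPM. SHE, the SH2 adaptor, had an average of 17.0 CPM (Mandarin_01447400), or 4.09 on the log2 scale, between that quartile and the median. The averages of the 4 genes spanned 2.76 log2 units. ENG and SHE lay between the quartiles of the table, while ACVRL1 lay above the upper one at 57.9 CPM. The median and quartiles are those of gene models with P under 0.05 between the vanes. Where the 4 genes stand among all expressed genes is not known. Scaled read counts were thus higher for ACVRL1 and ENG than for TEK and SHE. Counting error probably weighs most on TEK, but it could not be computed without the depth.

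**Figure D1:**
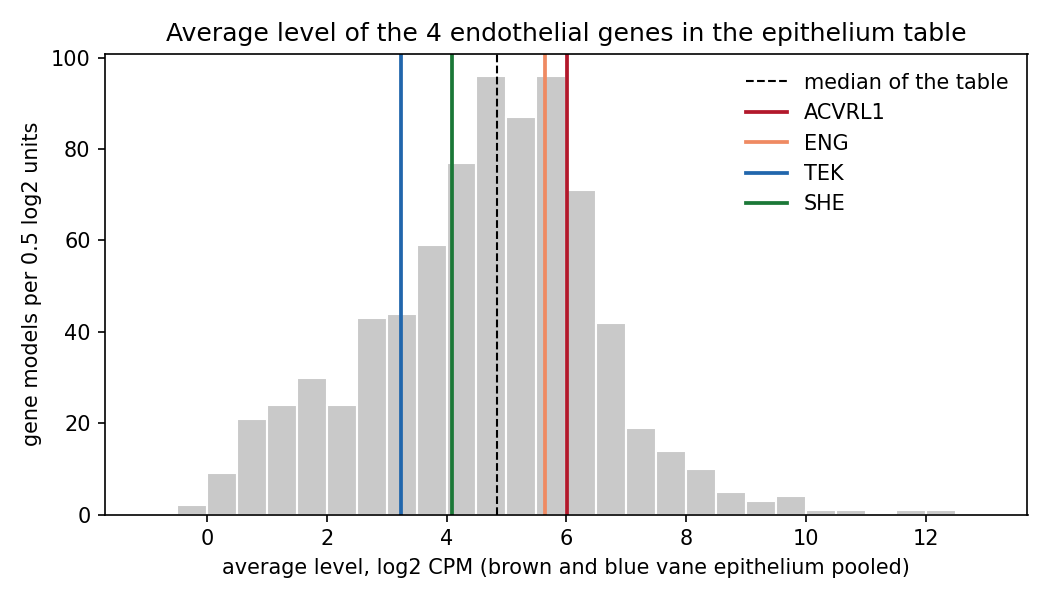
The horizontal axis gives the average level in log2 CPM over the medial brown and lateral blue vane epithelium libraries, and the vertical axis the number of gene models in each bin (grey bars, all 784 gene models of the epithelium table). Coloured lines mark ACVRL1 at 6.01, ENG at 5.64, SHE at 4.09 and TEK at 3.24, and the dashed line marks the median of the table; ACVRL1 and ENG lie to the right of it and SHE and TEK to the left.

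Each of the 4 symbols belonged to 1 gene model, whereas 46 symbols of the epithelium table were given to more than 1. A search that ignored case and also took older names (ALK1, CD105 and TIE2) and suffixed copies again found 4 gene models. None of these genes was among the 5 gene models that stood in both tables. Their level in the pulp, the tissue that carries the vessels, is therefore not analysed here, and nothing can be said of how much of these transcripts the epithelium held relative to the pulp.

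Other genes around ENG and ACVRL1 were searched by symbol in both tables, by lists. No symbol was given to 214 of the 784 gene models in the epithelium table and 23 of the 80 in the pulp table. A listed gene may be among these, so here and for the other lists an absence holds for the symbols only. The lists were chosen with earlier results of these data known, and they hold 48 symbols of ligands, receptors, SMAD proteins with inhibitors, and target genes. Of these, 4 stood in the epithelium table and 2 in the pulp table. How many gene models the authors tested was not taken from the tables, so the share of all genes that would stand there is not known, and these counts and those of the other lists are descriptions that cannot be set against it. The ligand list had 2 of its 12 symbols in the epithelium table. BMP4, a bone morphogenetic protein, had an average of 27.1 CPM there, and INHBA, which encodes a subunit of activin, had 1.58 CPM. The ligand list also had 2 of its 12 symbols in the pulp table. GDF5, a growth factor of the same family, had an average of 2.13 CPM in the pulp, and LRG1, a secreted protein that binds endoglin in mouse and human, had 5.91 CPM. Both pulp values are low, and neither gene stood in the epithelium table. GDF2 and BMP10, which encode the ligands BMP9 and BMP10, stood in neither table.

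The receptor list had 0 of its 11 symbols in either table, BMPR2 and TGFBR2 included, and the list of SMAD proteins and inhibitors had 0 of 14. The list of target genes had 2 of its 11 symbols in the epithelium table and 0 in the pulp table. ID4, of the family of inhibitors of DNA binding that BMP signals induce, stood there as 2 gene models with averages of 73.5 CPM (Mandarin_00789600) and 179 CPM (Mandarin_01699900). Whether the 2 models belong to the same gene was not tested, so the averages of ID4 as a whole are uncertain. CXCR4, a chemokine receptor, had an average of 1.91 CPM. Why a symbol stood outside the tables was not tested, and its level is not known from them.

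Around TEK, the list of ligands and receptor partners had 0 of its 9 symbols in either table, with ANGPT1, ANGPT2 and TIE1 among those searched. The list of adaptors and effectors had 2 of its 14 symbols in the epithelium table and 0 in the pulp table. TNIP2, which binds TEK in human cells, had an average of 16.0 CPM. SHC2, an adaptor of the Shc family, stood there as 2 gene models at 55.7 and 37.3 CPM and is uncertain for the same reason as ID4. The family of SHE, with SHB, SHD and SHF, had 0 of its 3 symbols in either table.

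Of the 27 endothelial markers searched beside the 4 genes, 2 stood in the epithelium table and 0 in the pulp table. RAMP2, a partner of the adrenomedullin receptor, had an average of 37.8 CPM in the epithelium, and APLNR, the apelin receptor, had 3.73 CPM. The symbols of the defining markers KDR, FLT1, CDH5 and PECAM1 stood in neither table, and neither did any of the 5 lymphatic markers. Gene models without a symbol could not be searched. The content of endothelial cells in the epithelium libraries could thus not be read from these markers, and its part in the values of ENG, ACVRL1, TEK and SHE was not tested. In bulk tissue, more cells of a type and more RNA per cell cannot be told apart.

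Lists for other cell types of the pulp also had symbols in the epithelium table. A place there rests on P between the vanes, and whether such cells were in the libraries was not tested. Of 14 markers of pericytes and smooth muscle, 4 stood there, and ACTA2, PDGFRB and NOTCH3 were among those in neither table. CALD1, which binds actin, had an average of 82.3 CPM, MYL9, a myosin light chain, 47.5 CPM, TAGLN, an actin-binding protein of smooth muscle, 14.0 CPM and RGS5, a marker of pericytes, 5.69 CPM. Another 2 of the 14, ACTG2 and MYH11, stood in the pulp table, at averages of 487 and 225 CPM. Of 10 markers of fibroblasts and matrix, 2 stood in the epithelium table, COL5A1 at 25.3 CPM and COL14A1 at 4.76 CPM. COL1A1, COL3A1, DCN and PDGFRA were among those in neither table. Of 11 markers of blood and immune cells, BLNK and BLK stood in the epithelium table, at 17.0 and 2.68 CPM. PTPRC, CSF1R and HBA1 were among those in neither table. The marker lists too were chosen with earlier results of these data known.

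Of 14 keratinocyte markers, EDMTF4, a gene of the epidermal differentiation complex of birds, was the only one in the epithelium table, at an average of 162 CPM. With 1 marker there, the label of the tissue could not be checked on the list. The 5 gene models that stood in both tables differed in their averages in both directions. ZNF750, a transcription factor of epidermal differentiation, had averages of 85.7 CPM in the epithelium and 10.3 CPM in the pulp. AEBP1, a protein of connective tissue, had averages of 47.9 CPM in the epithelium and 206 CPM in the pulp. HPGDS, a prostaglandin D synthase, had averages of 905 CPM in the epithelium and 58.6 CPM in the pulp. SPOCK3, a matrix proteoglycan, had averages of 27.8 CPM in the epithelium and 252 CPM in the pulp, and the gene model without a symbol had 28.7 CPM in the epithelium and 10.7 CPM in the pulp. Whether the tables were normalized together is not given in the sources used here, and the spread of these averages is unknown.

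**Figure D2:**
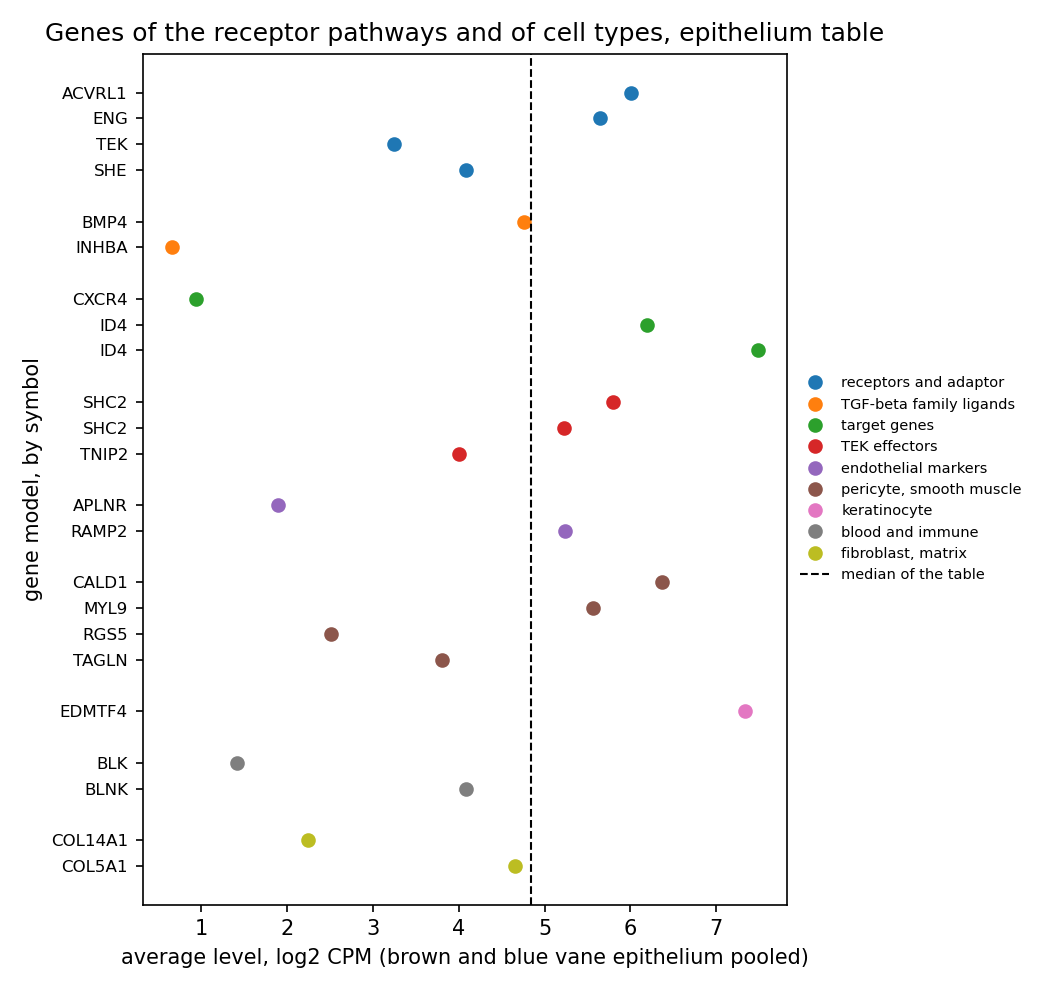
The horizontal axis gives the average level in log2 CPM over the medial brown and lateral blue vane epithelium libraries, and each point is 1 gene model of the epithelium table, in rows by symbol and coloured by list. The dashed line is the median of the table. ENG and ACVRL1 lie to the right of it with 2 gene models each of ID4 and SHC2, with RAMP2, CALD1, MYL9 and EDMTF4, and INHBA and CXCR4 have the lowest values shown.

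The identifiers of the authors' annotation run in steps of 100, and all 859 gene models followed this rule. Steps count identifiers only, and whether their order follows position in the genome was not tested. Near ENG, 3 other gene models within 5 steps stood in the epithelium table. AK1, an adenylate kinase, was 1 step away at an average of 24.2 CPM. A gene model of SHC2 was 3 steps away at 55.7 CPM, and DPM2, a subunit of dolichol-phosphate mannose synthase, was 4 steps away at 31.6 CPM. ACVRL1 had MAST4, a kinase, 2 steps away at 2.80 CPM, and TEK had ELOVL1, a fatty acid elongase, 2 steps away at 213 CPM. SHE had no such neighbour, the nearest gene model of the table being 22 steps away. Of the 80 gene models in the pulp table, 0 stood within 5 steps of any of the 4, and the nearest was PLOD2, 6 steps from ENG. The epithelium table holds 784 gene models, so the counts of neighbours in the 2 tables cannot be set side by side. How many such neighbours other gene models had was not counted, so no cluster is read from these counts. The library kit does not mark the strand, and with no genome at hand whether the models of ENG and AK1 overlap was not tested.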

How the data were processed

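RNA was sequenced from 8 libraries of male sail feathers, 2 in each of 4 groups. Per the labels, the authors used STAR 2.4.1d for alignment, HTSeq 0.6.0 for counting and edgeR for the comparison of the vanes. The paper's methods add TMM normalization. The paper names a Mandarin duck reference genome at NCBI; the build and annotation version used for the RNA are not given in the sources used here. The deposited tables, 1 per tissue, give a logCPM for each gene model, an average on the log2 scale that the authors computed. How it was averaged over the libraries is not given in the sources used here. All 784 and 80 rows had P under 0.05. The other columns hold the authors' own comparison (logFC, P and FDR, 3 per table) and were not used, except that P was counted against that threshold. The 5 gene models in both tables had different averages in each, so the averages were taken per tissue.

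Symbols were matched exactly, and average CPM was computed as 2 to the power of logCPM with Python 3.11.15, pandas 2.3.3, numpy 2.4.6 and matplotlib 3.10.9. Depth per library is unknown. Genes named are the 4 members, every symbol of 13 lists (152 symbols) found in a table, and gene models within 5 identifier steps of a member. The 5 gene models in both tables were added after their values were seen, and symbols named as outside the tables are examples from the lists. The members and lists were chosen with earlier results of these data known. No test was run.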

Additional observations from a re-analysis of the deposited data

How the results depend on the processing

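The number of gene models with the 4 symbols was 4 with exact symbols and 4 when case, older names and suffixed copies were allowed. The median average level was 28.7 CPM over all gene models of the epithelium table and 29.6 CPM over those with a symbol. In the pulp table these medians were 17.6 CPM and 14.0 CPM. The gene models with a symbol are part of the same rows, so this is a description and not a test of the medians. No paired analysis was possible because the tables hold averages and 0 columns of values per library, and for the same reason no replicate could be left out. Levels per coding length were not computed, since no lengths of these gene models were at hand. With the depth unknown, the precision of the 4 averages cannot be given.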
